A study of Arabidopsis thaliana with 20 samples.

Results

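The genes described here are 10 genes of jasmonate synthesis and response in Arabidopsis thaliana, chosen by name: LOX2 (AT3G45140), AOS (AT5G42650), AOC1 (AT3G25760), AOC2 (AT3G25770), OPR3 (AT2G06050), JAZ1 (AT1G19180), JAZ5 (AT1G17380), JAZ10 (AT5G13220), VSP1 (AT5G24780) and VSP2 (AT5G24770). They are 10 of the 36799 genes in the count tables, and all 10 passed the filter on low counts, which left 21987 genes to test. They were picked as pathway genes, with earlier results of these data known. In TAIR10 coordinates LOX2 lies at chr3:16525245-16529352, AOS at chr5:17097564-17099595, AOC1 at chr3:9403779-9405338, AOC2 at chr3:9406669-9408071, OPR3 at chr2:2359114-2362375, JAZ1 at chr1:6621777-6623668, JAZ5 at chr1:5955155-5957511, JAZ10 at chr5:4218786-4221077, VSP1 at chr5:8507590-8509201 and VSP2 at chr5:8500468-8502224, and the counts cover their annotated exons.

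Jasmonates are lipid-derived hormones of wounding, herbivory and fertility. In the chloroplast, the lipoxygenase LOX2, the allene oxide synthase AOS and the allene oxide cyclases AOC1 and AOC2 turn linolenic acid into OPDA, which the peroxisomal reductase OPR3 passes on towards jasmonic acid. The isoleucine conjugate brings the receptor COI1 and JAZ repressors together, the JAZ proteins are degraded, and MYC transcription factors are released. JAZ genes are themselves targets of these factors and so close a feedback loop. The vegetative storage proteins VSP1 and VSP2 are textbook jasmonate-induced genes of the MYC branch, while a second branch, in which ethylene and jasmonate act together through EIN3, EIL1 and the ERF factors, drives defensin genes such as PDF1.2.

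The libraries are poly(A) RNA from whole green seedlings, 5 days old, grown on sucrose-containing medium in short days at 21 °C, with 2 libraries in each of 10 groups. The 5 genotypes are wild type (Col-0), ein2 (ein2-5, a mutant of the membrane protein that passes on the ethylene signal), ein3 eil1 (ein3-1 eil1-1, lacking the main ethylene transcription factors), lhp1 (lhp1-3, a mutant of the polycomb-associated chromatin protein LHP1) and ein2 lhp1 (ein2-5 lhp1-3). Each was sampled at 21 °C or after 4 h at 27 °C, from ZT4 to ZT8 (hours after dawn), and the series title sets this in the context of LHP1, INO80 and ethylene in the response to warmth. No group received jasmonate or was wounded, so the values describe basal expression. The labels do not say whether the 2 libraries of a group came from separate batches of plants, and the p-values then measure only the spread between libraries. In the fit, the spread of each gene was drawn towards that of other genes (median prior degrees of freedom 59.6, beside 10 residual). A wide pair of replicates can therefore still carry a small SE.

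Total counts per library lay between 24153109 and 47566071. EIN2 RNA fell from 68.5 ± 3.42 CPM (library-scaled counts, TMM; SD, n = 2) in wild type to 24.7 ± 1.79 in ein2 and 24.1 ± 1.80 in ein2 lhp1 at 21 °C. EIN3 was at 81.8 ± 0.435 CPM in wild type and 23.6 ± 1.33 in ein3 eil1, and EIL1 at 55.1 ± 0.159 and 23.2 ± 1.37. LHP1, listed as TFL2 in the reference, was less separated, at 11.6 ± 0.772 CPM in wild type and 9.43 ± 0.146 in lhp1 at 21 °C. All 4 green tissue markers and all 6 root markers were detected in every library. The summed level of 13 seed storage and late embryo genes differed between genotypes, at 41.9 to 46.0 CPM in wild type at 21 °C (up to 3 of the 13 genes at 0), 20.3 to 24.3 in warmed wild type, and 75.6 to 1040 in the mutant groups. The 4 flower organ genes summed to 0.931 to 3.68 CPM without lhp1 and to 31.5 to 51.7 CPM in the lhp1 and ein2 lhp1 groups. In whole seedlings, fewer cells of a type and less RNA per cell cannot be told apart.

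The stretch of 250 bases before the annotated start is shown for LOX2, AOS, VSP1 and VSP2, the members that were higher in both ethylene mutants at both temperatures, since MYC factors are known to bind the G-box CACGTG and G-box-like sites. The sequences were read 5′ to 3′ on the strand of the gene from the RefSeq TAIR10.1 genome, and capitals mark the G-box CACGTG and the variants that end in GTT (CACGTT) or in GTA (CACGTA), searched on both strands. AOS is at chr5:17099596-17099845 on the minus strand, VSP1 at chr5:8509202-8509451 on the minus strand, VSP2 at chr5:8502225-8502474 on the minus strand and LOX2 at chr3:16524995-16525244 on the plus strand.
AOS: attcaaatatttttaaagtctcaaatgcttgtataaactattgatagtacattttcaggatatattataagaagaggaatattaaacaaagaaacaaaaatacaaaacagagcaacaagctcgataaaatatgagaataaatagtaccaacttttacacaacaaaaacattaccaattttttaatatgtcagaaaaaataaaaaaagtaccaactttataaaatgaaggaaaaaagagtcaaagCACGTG
VSP1: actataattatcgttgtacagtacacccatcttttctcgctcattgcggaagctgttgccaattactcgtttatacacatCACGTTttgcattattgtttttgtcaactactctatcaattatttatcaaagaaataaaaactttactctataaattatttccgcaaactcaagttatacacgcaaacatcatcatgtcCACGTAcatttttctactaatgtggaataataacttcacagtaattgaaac
VSP2: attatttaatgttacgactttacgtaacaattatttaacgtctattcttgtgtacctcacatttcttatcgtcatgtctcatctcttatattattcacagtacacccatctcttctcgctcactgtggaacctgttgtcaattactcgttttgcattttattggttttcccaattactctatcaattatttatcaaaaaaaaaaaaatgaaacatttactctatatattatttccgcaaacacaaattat
LOX2: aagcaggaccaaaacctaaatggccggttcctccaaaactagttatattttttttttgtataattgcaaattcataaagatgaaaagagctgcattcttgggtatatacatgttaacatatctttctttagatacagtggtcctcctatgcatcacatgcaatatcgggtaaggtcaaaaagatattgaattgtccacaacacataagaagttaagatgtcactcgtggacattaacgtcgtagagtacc

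The CACGTG of AOS took the last 6 bases before the annotated start, and none of the other 9 members had one in this window, beside 6.5% of 27443 nuclear protein-coding genes. CACGTT was found before 3 of the 10 members, AOC1, JAZ5 and VSP1, beside 7.5% of genes, and CACGTA before VSP1, beside 6.8%. With 50 bases after the start added, the counts were 1, 4 and 1 of 10, beside 7.7%, 9.0% and 7.9% of genes. A match is a description of the letters only. Other G-box-like sites were not searched, so an unmarked stretch, such as that of LOX2 or VSP2, may still hold one. VSP1 and VSP2 lie on the same strand of chromosome 5, 5365 bases apart. Their upstream stretches shared an identical run of 23 bases and 43.6% of aligned positions.

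Levels can be compared between genes per kilobase of exon. In wild type at 21 °C, AOC2 was highest at 61.8 CPM per kb, followed by AOS at 23.5, LOX2 at 16.7, JAZ1 at 12.6, OPR3 at 11.4, AOC1 at 10.9, VSP2 at 10.4, VSP1 at 6.41, JAZ10 at 1.75 and JAZ5 at 0.361. In ein2 at 21 °C the order changed, with LOX2 at 79.1 and AOS at 70.7 CPM per kb ahead of AOC2 at 63.0, and VSP2 at 37.9 and VSP1 at 32.2 ahead of OPR3 and JAZ1. The ratio of the highest to the lowest group mean was 12 for LOX2, 10.6 for JAZ5, 6.9 for VSP2, 5.39 for VSP1, 4.22 for AOC2, 3.7 for AOS, 3.39 for JAZ10 and 2.54 for AOC1. It was smallest for OPR3 at 1.96 and JAZ1 at 1.72. JAZ5 rests on 2 to 62 counts per library, so its values carry the widest errors, while the next lowest member, JAZ10, had 54 to 202 counts.

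**Figure D1:**
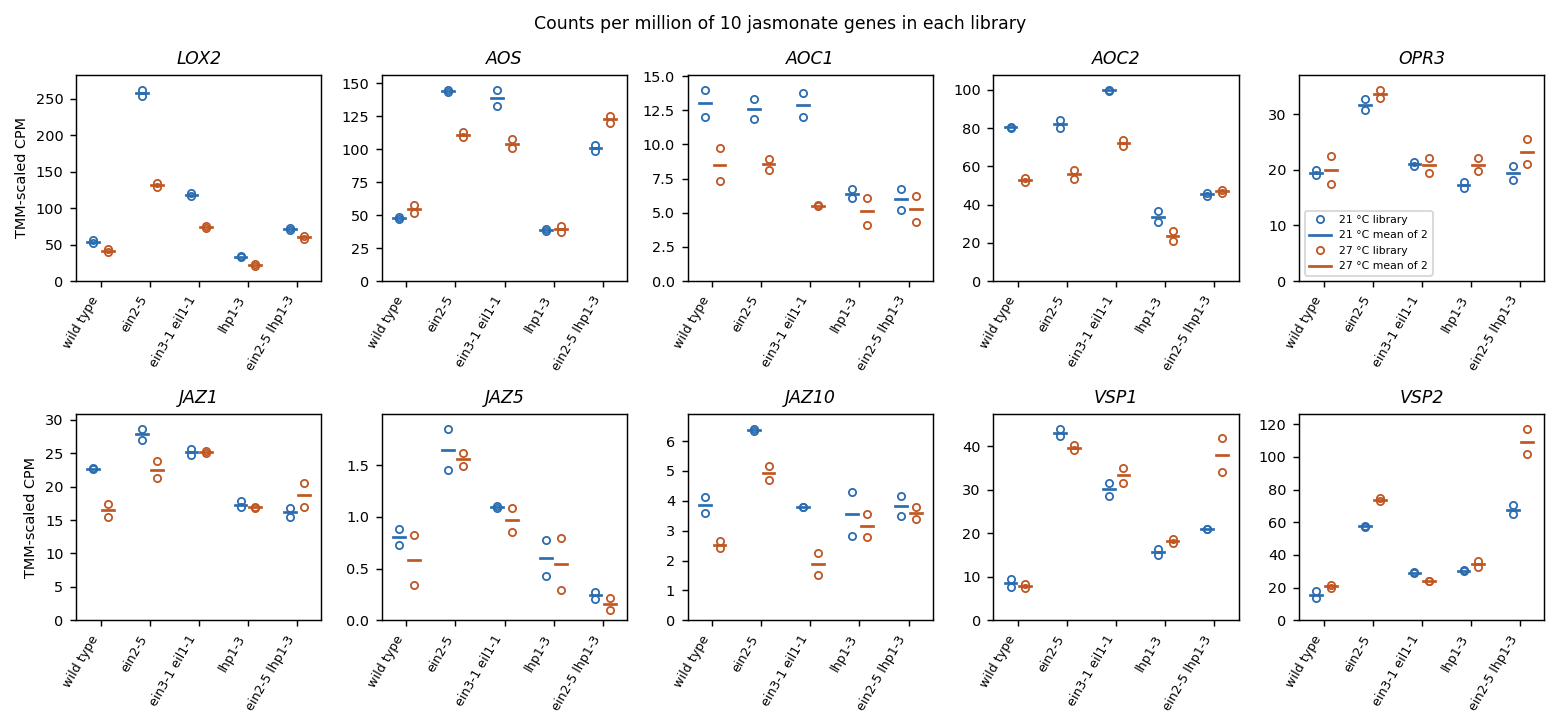
Each panel plots 1 gene, with genotype on the x axis and scaled CPM on the y axis. Circles are libraries and bars are means of 2, in blue at 21 °C and in orange at 27 °C. LOX2 in ein2 at 21 °C, at 253 and 262 CPM, stands above all other groups, and JAZ5 stays under 2 CPM throughout.

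The ein2 and ein3 eil1 comparisons ask how these genes stand when ethylene signalling is interrupted upstream or at the transcription factors. Both lines carried more LOX2, AOS, VSP1 and VSP2 RNA than wild type, at both temperatures, while JAZ1, JAZ10 and OPR3 were raised in ein2 at both temperatures and, but for JAZ1 at 27 °C, were not called in ein3 eil1. In ein2 at 21 °C, 7 of the 10 members were called at an adjusted p under 0.05, beside 35.9% of all genes tested, and at 27 °C 8 were called, beside 38.1%. The median log2 difference of the 10 was 0.865 at 21 °C and 0.989 at 27 °C, where the median over all genes was -0.004 at both. In ein3 eil1, 5 members were called at 21 °C, beside 31.5% of genes, and 7 at 27 °C, beside 36.6%. AOC1 was the member called lower there.

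LOX2, whose products feed jasmonate and other oxylipins, was at 55.8 and 52.6 CPM in the wild-type libraries at 21 °C, at 253 and 262 in ein2 and at 120 and 116 in ein3 eil1. The groups did not overlap, with ein2 about as far above ein3 eil1 as the latter was above wild type on the log2 scale. The difference from wild type was 2.25 ± 0.052 in ein2 (log2 ± SE, adjusted p 2.73e-49) and 1.12 ± 0.052 in ein3 eil1 (adjusted p 3.82e-30). At 27 °C the LOX2 levels were 43.6 and 40.0 CPM in wild type, 134 and 129 in ein2 and 72.8 and 75.0 in ein3 eil1, with differences of 1.65 ± 0.053 and 0.82 ± 0.054.

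AOS was raised to a similar level in both lines at 21 °C, at 145 and 143 CPM in ein2 and 145 and 133 in ein3 eil1, against 48.4 and 47.2 in wild type. The log2 differences were 1.59 ± 0.054 and 1.54 ± 0.054, and the libraries of the 2 mutant groups overlapped. The cyclases behaved otherwise. AOC1 was at 14.0 and 12 CPM in wild type, 13.3 and 11.9 in ein2 and 13.8 and 12 in ein3 eil1 at 21 °C, and the log2 differences of -0.04 ± 0.145 and -0.02 ± 0.146 were not called. AOC2, the more abundant copy, was at 79.9 and 80.8 CPM in wild type and 79.9 and 84.0 in ein2, and was higher in ein3 eil1 at 99.4 and 100 CPM (log2 0.31 ± 0.061, adjusted p 2.27e-05). OPR3 rose in ein2 from 19.0 and 20 to 30.7 and 32.7 CPM (log2 0.70 ± 0.095, adjusted p 3.77e-09). In ein3 eil1 it was at 21.4 and 20.7 CPM, which overlapped neither group but was not called (log2 0.11 ± 0.098, adjusted p 0.46).

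Among the repressors, JAZ1 at 21 °C was at 22.6 and 22.8 CPM in wild type and 26.9 and 28.6 in ein2 (log2 0.29 ± 0.089, adjusted p 0.00675). JAZ10, which has splice forms resistant to degradation, was at 3.60 and 4.14 CPM in wild type and 6.35 and 6.40 in ein2 (log2 0.72 ± 0.205, adjusted p 0.00368). JAZ5 was at 0.731 and 0.885 CPM against 1.45 and 1.85 at 21 °C, which was not called (log2 1.02 ± 0.450, adjusted p 0.0706), and was called at 27 °C (log2 1.43 ± 0.470, adjusted p 0.011). In ein3 eil1 only JAZ1 at 27 °C was called among the JAZ members, at 25.1 and 25.4 CPM against 17.4 and 15.5 in wild type (log2 0.61 ± 0.091, adjusted p 4.15e-08).

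Both storage protein genes were higher in both lines. VSP1 was at 7.62 and 9.54 CPM in wild type, 42.3 and 43.9 in ein2 and 28.5 and 31.6 in ein3 eil1 at 21 °C. These are log2 differences of 2.32 ± 0.096 (adjusted p 4.96e-33) and 1.80 ± 0.099 (adjusted p 3.33e-26), and at 27 °C they were 2.30 ± 0.098 and 2.05 ± 0.098. VSP2 was at 13.5 and 18.2 CPM in wild type, 57.5 and 57.4 in ein2 and 28.9 and 29.4 in ein3 eil1 at 21 °C. Its log2 difference was 1.85 ± 0.079 in ein2 and 0.87 ± 0.083 in ein3 eil1. At 27 °C VSP2 stood at 75.0 and 72.8 CPM in ein2 (log2 1.83 ± 0.076) but at 23.9 and 23.8 in ein3 eil1 against 20.1 and 21.7 in wild type, where the call is marginal (log2 0.20 ± 0.081, adjusted p 0.0498) and was lost in 12 of the 20 fits that left out 1 library.

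A single library decided some of these calls. JAZ1 in ein2 at 21 °C was 0.25 without ein2 replicate 2 (adjusted p 0.0855) and JAZ10 was 0.62 without wild-type replicate 1 (adjusted p 0.0573). JAZ5 in ein2 at 27 °C was 0.91 without wild-type replicate 1 (adjusted p 0.233), 2.16 without wild-type replicate 2 and 1.37 without ein2 replicate 2 (adjusted p 0.0679). AOC1 in ein3 eil1 at 27 °C was -0.41 without wild-type replicate 2 (adjusted p 0.103). The summed root markers were 5470 to 5540 CPM in ein2 against 2550 in wild type at 21 °C, but 1 of the 6 was called higher and 1 lower, with a median log2 difference of 0.07. The seed markers summed to 466 to 475 CPM in ein2, with 10 of 13 called higher. In ein3 eil1 at 21 °C, 5 of 6 root markers were lower (median log2 -0.41), 4 of 4 green markers were higher (69300 to 70300 CPM against 48500 to 48700) and 11 of 13 seed markers were higher (255 to 263 CPM). The part of these in the member differences was not tested.

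**Figure D2:**
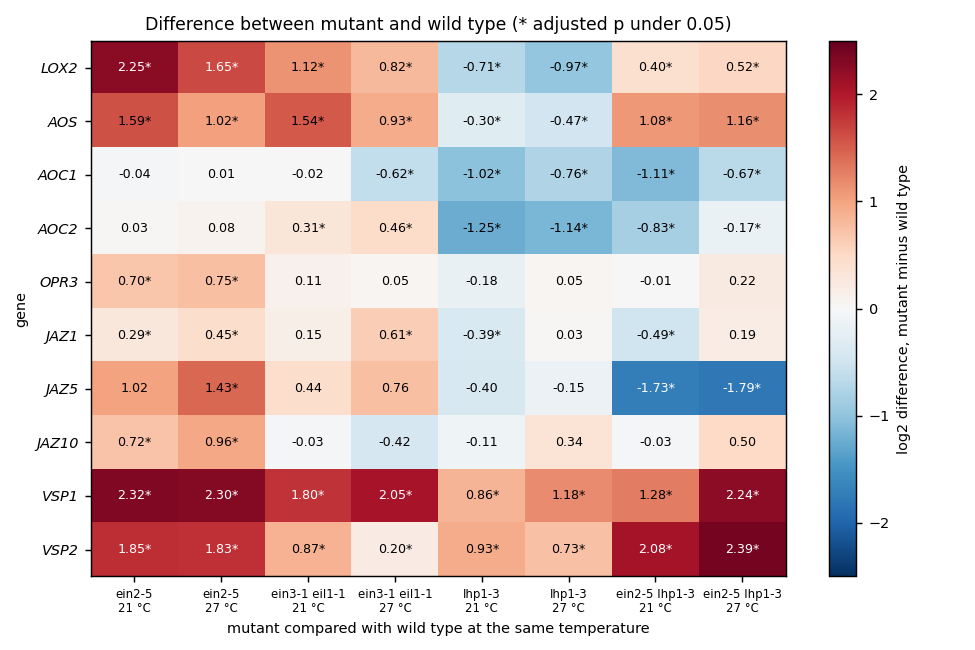
The grid gives the log2 difference between each mutant and wild type at the same temperature, with genes in rows, comparisons in columns, and an asterisk where the adjusted p was under 0.05. VSP1 and VSP2 are higher in all 8 comparisons, while LOX2 and AOS are higher in the 6 columns with an ethylene mutation and lower in the 2 columns of lhp1.

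In lhp1, LOX2, AOS, AOC1 and AOC2 stood below wild type and VSP1 and VSP2 above it, at both temperatures. Of 12 other synthesis genes tested, 3 were higher and 1 lower at 21 °C and 4 higher and 6 lower at 27 °C. At 21 °C 7 of the 10 members were called, beside 28.3% of genes, and at 27 °C 6, beside 26.7%. AOC2 fell from 79.9 and 80.8 CPM in wild type to 36.5 and 30.9 in lhp1 at 21 °C and from 51.7 and 53.7 to 26.3 and 20.9 at 27 °C. These are log2 differences of -1.25 ± 0.065 (adjusted p 2.14e-27) and -1.14 ± 0.069 (adjusted p 1.14e-23), with no overlap between the groups.

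AOC1 fell too, from 14.0 and 12 to 6.07 and 6.74 CPM at 21 °C (log2 -1.02 ± 0.152, adjusted p 6.61e-08). LOX2 was at 33.8 and 32.5 CPM in lhp1 at 21 °C and at 20.1 and 22.9 at 27 °C, below wild type by log2 -0.71 ± 0.056 and -0.97 ± 0.061. AOS was at 38.1 and 39.7 CPM and at 41.7 and 36.9 CPM, with smaller differences of -0.30 ± 0.057 and -0.47 ± 0.057. OPR3, JAZ5 and JAZ10 were not called at either temperature, with log2 values between -0.40 and 0.34. JAZ1 was lower at 21 °C, at 17.8 and 16.9 CPM (log2 -0.39 ± 0.091, adjusted p 0.000463), and level with wild type at 27 °C at 16.8 and 16.9 against 17.4 and 15.5 CPM.

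VSP1 and VSP2 went the other way. VSP1 was at 16.3 and 15 CPM in lhp1 at 21 °C and 17.8 and 18.7 at 27 °C, above wild type by log2 0.86 ± 0.102 (adjusted p 8.9e-11) and 1.18 ± 0.102 (adjusted p 4.93e-16). VSP2 was at 30.6 and 30.4 CPM and at 36.4 and 32.4 CPM, above wild type by 0.93 ± 0.081 and 0.73 ± 0.078. In none of these VSP comparisons did the libraries of the groups overlap.

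The AOC1 call at 27 °C (log2 -0.76 ± 0.161) was lost without lhp1 replicate 1 (log2 -0.47, adjusted p 0.0759). The green tissue markers summed to 35600 to 36500 CPM in lhp1 against 48500 to 48700 in wild type at 21 °C, with 4 of 4 lower, and to 34700 against 35400 to 35500 at 27 °C, with 2 of 4 lower and 1 higher. The seed markers were at 544 to 551 CPM in lhp1 at 21 °C and at 75.6 to 78.3 at 27 °C. Their part in the member values was not tested.

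At 21 °C the double mutant ein2 lhp1 combined low cyclases with high AOS and storage protein genes. At 27 °C AOS and the storage protein genes were high again, while AOC1 was at log2 -0.67 ± 0.169 and AOC2, at -0.17 ± 0.067, was close to wild type. At 21 °C 8 members were called against wild type, beside 33.8% of genes, and at 27 °C 7, beside 47.0%. AOC1 was at 5.22 and 6.75 CPM and AOC2 at 46.0 and 44.7 CPM at 21 °C, below wild type by log2 -1.11 ± 0.158 and -0.83 ± 0.064. AOS was at 98.8 and 103 CPM at 21 °C and 125 and 120 at 27 °C, above wild type by 1.076 ± 0.055 and 1.16 ± 0.054.

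LOX2 was at 72.9 and 70.4 CPM at 21 °C and 62.2 and 57.8 at 27 °C, above wild type by log2 0.40 ± 0.054 and 0.52 ± 0.057. VSP2 reached its highest group level in the double mutant, at 70.5 and 64.9 CPM at 21 °C and 117 and 102 at 27 °C (log2 2.08 ± 0.079 and 2.39 ± 0.076, adjusted p 1.37e-35 and 1.32e-40). VSP1 was at 20.9 and 21.0 CPM and then at 41.9 and 34.1 CPM, with differences of 1.28 ± 0.102 and 2.24 ± 0.10. JAZ5 was at its lowest, at 0.211 and 0.273 CPM at 21 °C and 0.0957 and 0.217 at 27 °C, and was called lower at both (log2 -1.73 ± 0.582 and -1.79 ± 0.683).

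These JAZ5 calls were lost without wild-type replicate 2 at either temperature (log2 -1.58 at 21 °C and -1.06 at 27 °C), without ein2 lhp1 replicate 1 (-1.56 and -1.39) and, at 21 °C, without ein2 lhp1 replicate 2 (-1.93). At 27 °C the calls of AOC1 (log2 -0.67 ± 0.169) and AOC2 (log2 -0.17 ± 0.067) were lost without wild-type replicate 2 (-0.46 and -0.14), AOC1 also without ein2 lhp1 replicate 1 (-0.45) and AOC2 without replicate 2 (-0.14). The green markers summed to 72100 to 72300 CPM in ein2 lhp1 at 21 °C and 65600 to 68000 at 27 °C, above wild type, and the seed markers to 530 to 560 and 1000 to 1040 CPM. Their part in the member values was not tested.

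After 4 h at 27 °C, LOX2 was lower than at 21 °C in every genotype and AOC2 in all but ein2 lhp1. VSP2 was higher in wild type, ein2 and ein2 lhp1. The labels used do not give the hour at which the 21 °C plants were harvested. If the hours differ, warmth and time of day cannot be told apart in these comparisons. Of 9 clock genes, 4 were higher and 3 lower at 27 °C in wild type, and 5 and 4 in ein3 eil1. The counts were 1 and 4 in ein2 and in lhp1, and 2 and 4 in ein2 lhp1. The green markers summed to 48500 to 48700 CPM in wild type before and 35400 to 35500 after warming, and to 69300 to 70300 and 51000 to 51100 in ein3 eil1. Of the 8 touch and wound genes 6 fell in wild type, and all 13 seed markers fell in lhp1, while 9 of 13 rose in ein2 lhp1. The part of these in the member changes was not tested. The 10 members had a median log2 change of -0.42 for wild type, -0.34 for ein2, -0.35 for ein3 eil1, -0.10 for lhp1 and 0.13 for ein2 lhp1, where the median over all genes lay between -0.005 and 0.003. The members called were 7 for wild type, beside 39.2% of genes, 6 for ein2, beside 27.1%, 6 for ein3 eil1, beside 36.8%, 3 for lhp1, beside 31.7%, and 5 for ein2 lhp1, beside 29.0%. LOX2 was lower in all 5 genotypes and was the only member called in each of them. Its log2 changes were -0.37 ± 0.055 for wild type, -0.97 ± 0.049 for ein2, -0.68 ± 0.051 for ein3 eil1, -0.64 ± 0.062 for lhp1 and -0.26 ± 0.055 for ein2 lhp1.

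AOC2 fell by similar amounts in 4 genotypes, by log2 -0.61 ± 0.062 for wild type, -0.56 ± 0.063 for ein2, -0.47 ± 0.061 for ein3 eil1 and -0.50 ± 0.071 for lhp1. In ein2 lhp1 it was level, at 46.0 and 44.7 CPM before and 47.7 and 46.0 after warming (log2 0.05 ± 0.069, adjusted p 0.677). AOC1 fell in wild type (-0.61 ± 0.148), ein2 (-0.57 ± 0.152) and ein3 eil1 (-1.21 ± 0.157). AOS rose in wild type from 48.4 and 47.2 to 57.6 and 51.6 CPM (log2 0.20 ± 0.056, adjusted p 0.00322) and in ein2 lhp1 (0.28 ± 0.053), and fell in ein2 (-0.38 ± 0.051) and ein3 eil1 (-0.41 ± 0.051). OPR3 was called in lhp1 and in ein2 lhp1, both higher at 27 °C (0.28 ± 0.097 and 0.27 ± 0.101).

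JAZ1 fell in wild type from 22.6 and 22.8 to 17.4 and 15.5 CPM (log2 -0.46 ± 0.092, adjusted p 2.24e-05) and in ein2 (-0.31 ± 0.090). In ein3 eil1 it stayed at 25.6 and 24.8 against 25.1 and 25.4 CPM (0.00 ± 0.089). JAZ10 fell in wild type (-0.62 ± 0.219) and ein3 eil1 (-1.0 ± 0.231), and JAZ5 was not called in any genotype, with SEs of 0.430 to 0.803. VSP2 rose in wild type from 13.5 and 18.2 to 20.1 and 21.7 CPM (0.38 ± 0.085), in ein2 (0.36 ± 0.070) and in ein2 lhp1 (0.69 ± 0.069), and fell in ein3 eil1 (-0.29 ± 0.080), a call that was lost with VSP1 and VSP2 summed (-0.06, adjusted p 0.555). In lhp1 VSP2 was not called (0.18 ± 0.075, adjusted p 0.0593). VSP1 changed past the threshold in ein2 lhp1 alone, from 20.9 and 21.0 to 41.9 and 34.1 CPM (0.85 ± 0.092, adjusted p 2.74e-12).

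In the authors' deposited table, which is given for each genotype apart, LOX2 was at -0.38 in wild type and -0.96 in ein2 on the log2 scale. VSP2 in wild type was at 0.40 with an adjusted p of 0.136 in the authors' deposited table, past the threshold in the fit of all groups and not there. The same held in the authors' deposited table for JAZ1 in ein2 (adjusted p 0.0652) and for OPR3 in lhp1 (adjusted p 0.0926) and ein2 lhp1 (adjusted p 0.271). Several warming calls rested on 1 library. In wild type, AOC1 was -0.41 and AOS 0.11 without replicate 1 at 27 °C, JAZ10 was -0.55 without that library and -0.51 without replicate 2 at 21 °C, and VSP2 was 0.20 without replicate 1 and 0.63 without replicate 2 at 21 °C. Without wild-type replicate 1 at 27 °C, the calls of AOC1, AOS and JAZ10 were lost. In ein2, JAZ1 lost its call without replicate 2 at 21 °C (-0.26) or 27 °C (-0.23), and AOC1 without replicate 1 at 21 °C (-0.48) or replicate 2 at 27 °C (-0.50). OPR3 lost it in lhp1 without replicate 1 at 21 °C (0.23) or replicate 2 at 27 °C (0.20), and in ein2 lhp1 without replicate 2 at 21 °C (0.18) or at 27 °C (0.11). Among values not called, AOC1 in lhp1 reached -0.63 without replicate 2 at 27 °C and JAZ1 in ein2 lhp1 0.35 without replicate 1 at 27 °C, both then past the threshold, and VSP2 in lhp1 passed in 5 of the fits that left out 1 library (0.26 without lhp1 replicate 2 at 27 °C, adjusted p 0.0233).

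**Figure D3:**
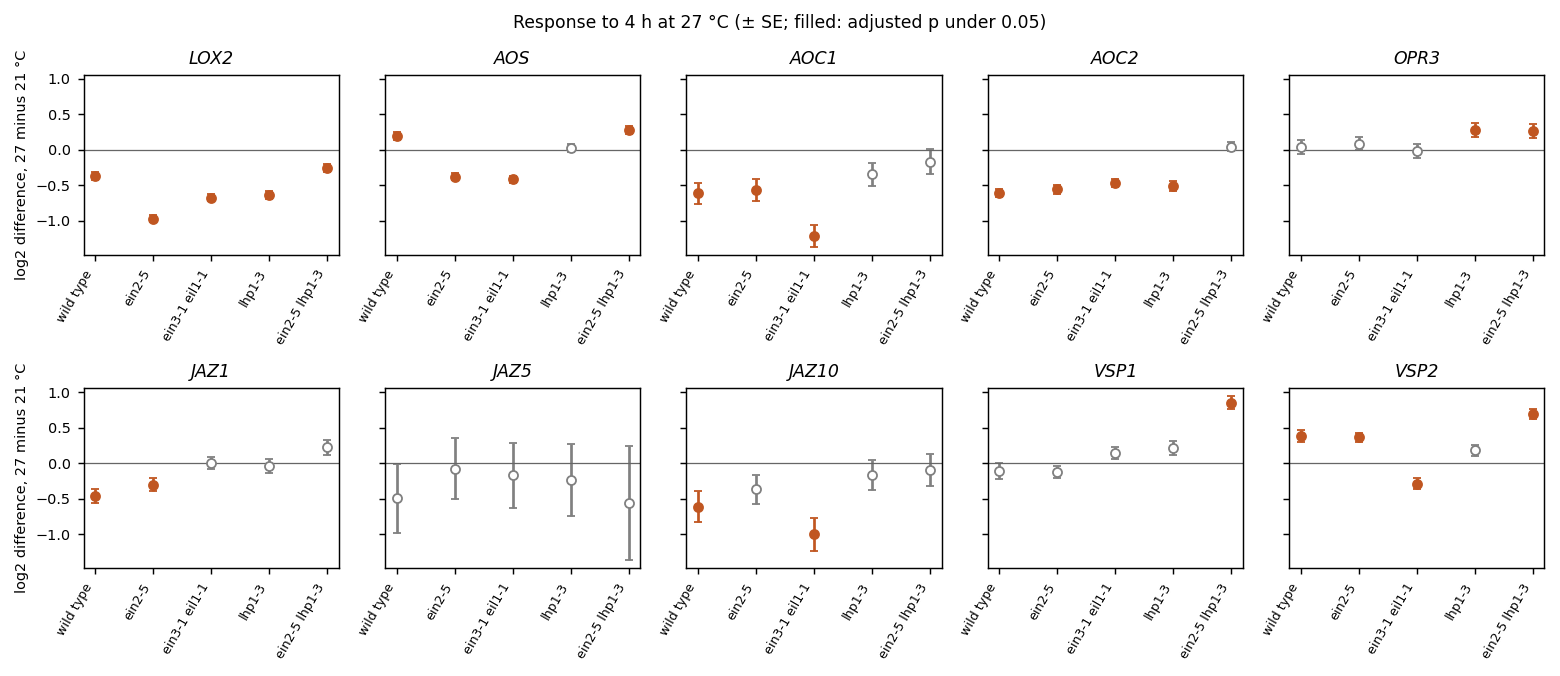
Each panel plots 1 gene, with genotype on the x axis and the log2 difference between 27 and 21 °C on the y axis. Points are fitted values with SE bars, filled where the adjusted p was under 0.05. LOX2 is below 0 in all 5 genotypes, and VSP1 is near 0 in 4 genotypes and at 0.85 in ein2-5 lhp1-3.

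Whether a warming response differed from that of wild type was tested directly. In ein2, 2 members were called, beside 24.1% of genes. LOX2 fell further than in wild type (difference of responses -0.60 ± 0.073, adjusted p 3.96e-10), and AOS fell where it rose in wild type (-0.57 ± 0.075, adjusted p 3.72e-09). In ein3 eil1, 4 were called, beside 9.46% of genes, with AOS at -0.61 ± 0.075, VSP2 at -0.67 ± 0.116, LOX2 at -0.30 ± 0.075 and JAZ1 at 0.47 ± 0.128. In lhp1, 2 were called, beside 20.6%, with JAZ1 at 0.42 ± 0.131 and LOX2 at -0.27 ± 0.083 (adjusted p 0.013 and 0.0141). In ein2 lhp1, 4 were called, beside 16.9%, with VSP1 at 0.96 ± 0.144, JAZ1 at 0.69 ± 0.135, AOC2 at 0.66 ± 0.093 and VSP2 at 0.31 ± 0.109. These comparisons share the wild-type libraries. With the trend of fold change with gene length removed, the LOX2 values were -0.38 in ein2, -0.21 in ein3 eil1 (adjusted p 0.0812), -0.15 in lhp1 (adjusted p 0.255) and 0.31 in ein2 lhp1 (adjusted p 0.00462), so that the calls in ein3 eil1 and lhp1 were lost and one in ein2 lhp1 was gained.

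Without wild-type replicate 2 at 27 °C, JAZ1 was 0.39 in ein3 eil1 and 0.34 in lhp1, neither past the threshold. JAZ1 also lost its call without replicate 2 at 21 °C of ein3 eil1 (0.44) or of lhp1 (0.38). LOX2 in ein3 eil1 was -0.24 without wild-type replicate 1 at 27 °C. LOX2 in lhp1 was -0.20 without that library and -0.22 without wild-type replicate 2 at 21 °C. It was -0.23 without lhp1 replicate 1 at 21 °C and -0.17 without lhp1 replicate 1 at 27 °C. The LOX2 calls were lost in all of these fits. VSP2 in ein2 lhp1 was 0.06 without wild-type replicate 2 at 21 °C, 0.49 without wild-type replicate 1 at 21 °C and 0.25 without wild-type replicate 1 at 27 °C. It was 0.25 and 0.21 without ein2 lhp1 replicate 2 at 21 °C or replicate 1 at 27 °C. The VSP2 call was lost in all of these fits but the one without wild-type replicate 1 at 21 °C. It was also lost with the DESeq2 Wald test (0.30, adjusted p 0.0941) and in edgeR with the trend with gene length removed (0.235, adjusted p 0.179).

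The double mutant set against each single mutant asks what loss of EIN2 does where LHP1 is already lost, and the reverse. Against lhp1, 5 members were called at 21 °C, beside 35.9% of genes, and the same 5 at 27 °C, beside 34.4%. These were LOX2 (log2 1.11 ± 0.056 and 1.49 ± 0.061), AOS (1.37 ± 0.056 and 1.63 ± 0.056), AOC2 (0.42 ± 0.068 and 0.97 ± 0.072), VSP1 (0.42 ± 0.095 and 1.06 ± 0.091) and VSP2 (1.15 ± 0.073 and 1.66 ± 0.072), all higher with EIN2 also lost. OPR3, JAZ1 and JAZ10 lay between -0.10 and 0.17 and were not called. JAZ5 was not called at 21 °C (-1.33 ± 0.599) or 27 °C (-1.64 ± 0.693), the latter reaching -2.26 with a call without lhp1 replicate 1.

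Against ein2, all 10 members were called at 21 °C, beside 36.8% of genes, and 8 at 27 °C, beside 37.4%. At 21 °C VSP2 was higher in the double mutant (log2 0.24 ± 0.071) and the members called lower ran from AOS at -0.51 ± 0.051 to LOX2 at -1.84 ± 0.051 and JAZ5 at -2.74 ± 0.554. LOX2 went from 253 and 262 CPM in ein2 to 72.9 and 70.4 in ein2 lhp1, and OPR3 from 30.7 and 32.7 to 20.7 and 18.1. At 27 °C LOX2 (-1.13 ± 0.053), JAZ5 (-3.22 ± 0.617), AOC1 (-0.68 ± 0.170), OPR3 (-0.53 ± 0.096), JAZ1 (-0.25 ± 0.096) and AOC2 (-0.25 ± 0.067) were lower, AOS (0.15 ± 0.052) and VSP2 (0.56 ± 0.068) higher, and VSP1 and JAZ10 not called.

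At 21 °C the JAZ10 call was lost without ein2 lhp1 replicate 2 (-0.62) and the VSP2 call without its replicate 1 (0.17). At 27 °C, leaving out ein2 replicate 1 ended the calls of JAZ1 (-0.18), AOC2 (-0.20) and AOS (0.12). Leaving out ein2 lhp1 replicate 1 ended those of JAZ1 (-0.13), AOC1 (-0.46) and AOS (0.12). JAZ1 was -0.41 without ein2 lhp1 replicate 2. Root markers summed to 5470 to 5540 CPM in ein2 and 3380 to 3410 in ein2 lhp1 at 21 °C, with 1 of 6 called higher, 1 lower and a median log2 difference of -0.03. Green markers summed to 45000 in ein2 and 72100 to 72300 in ein2 lhp1, with 4 of 4 higher. Against lhp1, 4 of 4 green markers were higher in ein2 lhp1 at both temperatures, with a median log2 difference of 0.99 at 21 °C and 0.97 at 27 °C. Of 13 seed markers, 4 were higher and 8 lower than in lhp1 at 21 °C, and 9 were higher at 27 °C. Their part in the member values was not tested.

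How far the lhp1 difference depended on EIN2 was tested as the change from ein2 to ein2 lhp1 minus the change from wild type to lhp1, a comparison chosen after the values were seen. It called 8 members at 21 °C, beside 27.2% of genes, and 6 at 27 °C, again beside 27.2%. VSP1 was higher with lhp1 in the wild-type background, lower with it in ein2 at 21 °C and level there at 27 °C, with a difference of -1.90 ± 0.136 at 21 °C and -1.25 ± 0.134 at 27 °C (adjusted p 6.83e-20 and 3.26e-12). LOX2 fell further in ein2 at 21 °C (-1.14 ± 0.076, adjusted p 2.05e-21) and by an amount not called as different at 27 °C (-0.16 ± 0.081, adjusted p 0.141), though it was called without lhp1 replicate 1 (-0.26, adjusted p 0.032).

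OPR3 was lower with lhp1 in ein2 and not called in the wild-type background, with differences of -0.53 ± 0.138 and -0.58 ± 0.136. AOC2 fell less in ein2, by 0.40 ± 0.092 and 0.89 ± 0.096. AOS gave -0.21 ± 0.077 at 21 °C and 0.62 ± 0.077 at 27 °C, and VSP2 -0.70 ± 0.108 at 21 °C and -0.17 ± 0.104, not called, at 27 °C. JAZ5 gave -2.34 ± 0.748 and -3.08 ± 0.831, JAZ1 -0.39 ± 0.131 at 21 °C, JAZ10 -0.80 ± 0.313 at 27 °C, and AOC1 was not called at either.

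Of these, the AOS call at 21 °C was lost without wild-type replicate 2 (-0.20), ein2 replicate 1 (-0.20), lhp1 replicate 2 (-0.19) or ein2 lhp1 replicate 1 (-0.19). JAZ1 was -0.35 without ein2 replicate 2 or lhp1 replicate 1 and -0.34 without ein2 lhp1 replicate 1. JAZ5 was -1.82 without lhp1 replicate 1 and -2.17 without ein2 lhp1 replicate 1 at 21 °C, and -2.29 without lhp1 replicate 2 at 27 °C. The JAZ10 call (adjusted p 0.0463) was lost in 11 of the 20 fits that left out 1 library, with values from -0.88 to -0.60 in those 11. Without ein2 lhp1 replicate 1 at 21 °C, the calls of AOS, JAZ1 and JAZ5 were lost.

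**Figure D4:**
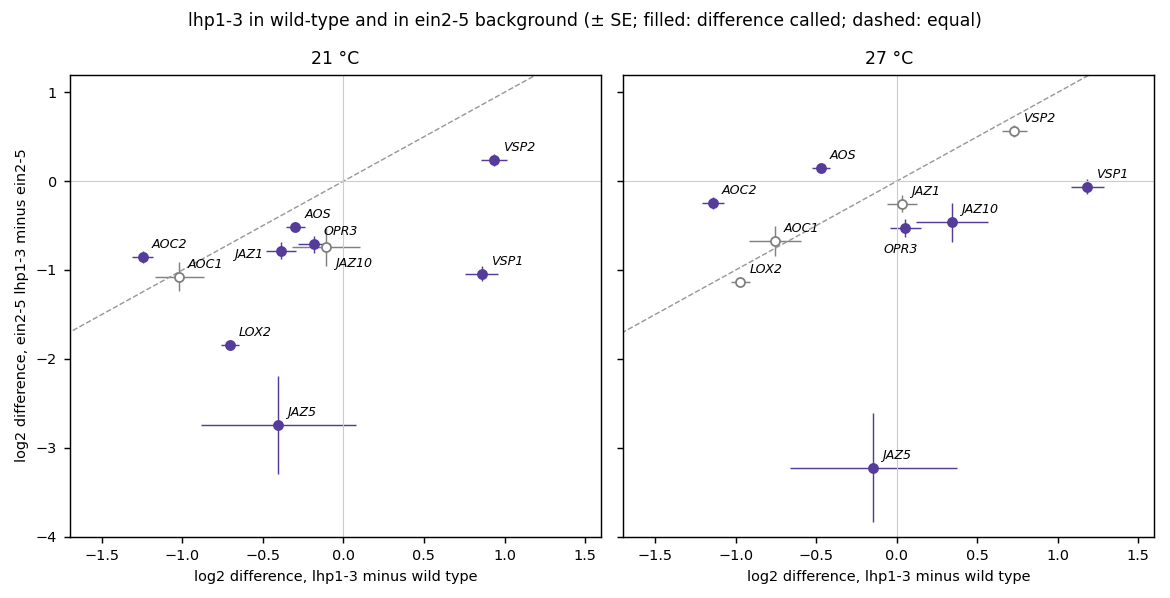
For each gene, the log2 difference between lhp1-3 and wild type (x axis) is plotted against that between ein2-5 lhp1-3 and ein2-5 (y axis), with SE bars, at 21 °C (left) and 27 °C (right). The dashed line marks equal values and filled points passed the test of the difference. VSP1 lies right of 0 and below the line in both panels, and AOC1 lies near the line.

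Copies that share sequence limit what can be said of single genes. The coding sequences of AOC1 and AOC2 were identical at 89.9% of aligned positions, with a longest identical run of 47 bases, and those of VSP1 and VSP2 at 88.1%, with a run of 54 bases. The JAZ members were less alike, at 44.9% to 46.8%. How reads that fit more than 1 copy were placed is not given in the sources used here. AOC1, AOC2 and AOC3 were summed as 1 gene, and VSP1 and VSP2 as another. AOC3 is not a member and was less alike, at 81.5% with AOC1 and 80.8% with AOC2. The low level of the cyclases in lhp1 and the high level of the storage protein genes in the mutants remained past the threshold. The cyclase sum in ein2 lhp1 at 27 °C was level with wild type (log2 -0.03, adjusted p 0.728), so the lower AOC1 and AOC2 there were not seen in it. As AOC1 and AOC2 were both lower, the level sum reflects AOC3, and it does not bear on reads shared between AOC1 and AOC2. In lhp1 at 27 °C the cyclase sum was lower by a log2 of -0.74, against -1.14 for AOC2 alone. The fall of VSP2 with warming in ein3 eil1 was not seen in the sum of VSP1 and VSP2 (log2 -0.06, adjusted p 0.555). The cyclase sum in ein3 eil1 was above wild type by log2 0.23 at 21 °C and 0.31 at 27 °C. AOC2 was at 99.7 and 72.3 CPM there and AOC1 at 12.9 and 5.52 CPM, so the sum says little of AOC1. Of the exonic bases of the members, 3.21% of JAZ10 overlapped a gene on the other strand and none of the other 9 did.

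Beyond the members, 55 further genes of jasmonate synthesis, perception, turnover and response were listed, of which 45 were tested and 10 were under the count filter, among them PDF1.2, ERF1 and THI2.1 of the ethylene and jasmonate branch. MYC2, the best known factor of the pathway, had 0 counts in every library, and 98.5% of its exonic bases also lie in AT1G32630 on the other strand in the annotation used for counting, so its level cannot be read from these tables. In ein2 at 21 °C, 19 list genes of the 45 rose past the threshold and 4 fell, beside 18.5% and 17.4% of all genes, with a median log2 difference of 0.24, and at 27 °C 13 and 9, beside 19.8% and 18.3%, with a median of 0.04. In ein3 eil1 the counts were 9 and 8 at 21 °C, beside 15.2% and 16.3% of genes, and 7 and 14 at 27 °C, beside 17.4% and 19.2%. In lhp1 they were 6 and 8, beside 12.6% and 15.7%, and then 7 and 10, beside 14.3% and 12.5%. In ein2 lhp1 they were 12 and 11, beside 17.6% and 16.1%, and then 11 and 14, beside 24.0% and 23.0%. Warming of wild type raised 14 and lowered 6, beside 18.8% and 20.3% of genes, with a median log2 change of 0.10, while the median of the 10 members was negative.

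A list gene that was also higher in both ethylene mutants was CORI3, a cystine lyase known as a coronatine- and jasmonate-induced gene. Its level was 2.22 ± 0.569 CPM in wild type, 12 ± 1.23 in ein2 and 6.57 ± 0.229 in ein3 eil1 at 21 °C (log2 2.45 ± 0.225 and 1.58 ± 0.230). At 27 °C it was at 0.487 ± 0.0613, 4.35 ± 0.461 and 1.62 ± 0.0406 CPM, and warming lowered it in all 5 genotypes, by log2 -2.17 ± 0.315 in wild type.

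The NAC factors of the same branch went the other way in ein2. NAC3, also known as ANAC055, had 0 counts in ein2 at 21 °C against 1.49 ± 0.394 CPM in wild type. Set against 3 counts per library this is 15.4-fold. Since mates were counted singly, 3 counts stand for fewer read pairs, and the value is not a lower bound. NAC019 was lower by log2 -2.15 ± 0.496. Among synthesis genes, OPCL1, a CoA ligase of the peroxisomal steps, was at 8.77 ± 0.483 CPM in wild type and 18.0 ± 1.07 in ein2 at 21 °C (log2 1.04 ± 0.125). LOX3 was at 9.70 ± 0.703 CPM in wild type and 4.79 ± 1.35 in lhp1 (log2 -1.0 ± 0.159), and LOX4 fell with warming in wild type (log2 -1.74 ± 0.325).

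Among repressors, JAZ6 was lower in ein3 eil1 (log2 -1.05 ± 0.133) and in ein2 lhp1 (-1.27 ± 0.136) at 21 °C, where the JAZ members were not lower in ein3 eil1, and JAZ7 was higher in ein2 (1.5 ± 0.491). ST2A, a hydroxyjasmonate sulfotransferase, was at 8.11 ± 0.0785 CPM in wild type, 1.69 ± 0.821 in ein3 eil1, 2.53 ± 0.297 with lhp1 lost and 2.47 ± 0.750 with both EIN2 and LHP1 lost, all at 21 °C. The 8 touch and wound genes outside the pathway summed to 94.5 to 98.7 CPM in wild type at 21 °C and 108 to 111 in ein2, and to 68.0 to 69.7 and 111 to 116 at 27 °C. The labels do not describe handling at harvest, and its part in the member values was not tested.

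Over the 10 group means of log2 CPM, LOX2 and AOS were the most alike pair of members (Pearson r 0.856), followed by AOC2 and JAZ1 (0.808) and AOS and VSP1 (0.799). AOC1 and VSP2 were the least alike (-0.326), and VSP1 and VSP2 stood at 0.710. Among 14734 other genes with a mean of at least 5 CPM, those closest to LOX2 were CRK40 (0.958), AT5G43140 (0.954) and AT5G07030 (0.938), and those closest to AOS were FACT (0.960), AT3G58550 (0.959) and ARP (0.953). For JAZ10 they were AT1G75990, ADK and GAMMA CA2 (0.958 to 0.964), and for VSP2 FER2, AT3G03341 and AT3G14880 (0.959 to 0.964). These are descriptions over 10 points that share genotypes and temperatures, and with this many candidates high values are found for any pattern.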

How the data were processed

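Counts per gene were made by the authors with featureCounts 2.0.3 on the Araport11 annotation, per the file headers, with the paired-end option and no strand option. The submitters' processing notes name TAIR10, Trim Galore, STAR, featureCounts and DESeq2. Mates were counted singly, since 78.2% to 83.58% of the counts between 5 and 50 were even. The file headers read 22 and 28 where the labels read 21 and 27 °C, and the labels were used. The deposited warming tables give the authors' log2 fold changes and adjusted p-values, and are used only where named.

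All 20 libraries entered 1 edgeR 4.0.16 quasi-likelihood fit in R 4.3.3 with 10 group means, TMM scaling and the filter on low counts by group. P-values were adjusted by Benjamini-Hochberg over all 21987 genes tested in each of 23 comparisons, with a threshold of 0.05, and SE is the size of the log2 difference divided by the root of F. CPM values are scaled by TMM. On simulated counts of 21801 genes, 85% of genes changed by a log2 of 0.5 and 100% of those changed by 1 were recovered. The simulation was made for warming in wild type only. The changed genes were drawn only from the more abundant genes of wild type, so the shares do not give the recovery of genes with few counts. Simulated counts took the spread usual for genes of like level and were not drawn as pairs of mates, unlike the data. JAZ5, at a log2 of 1.015 in ein2 against wild type at 21 °C, was not called. The members and gene lists were chosen with earlier results of these data known. The comparison of LHP1 loss between backgrounds was added after the values were seen. Genes of the lists were named where a called log2 difference was at least 1, at most 3 per list and comparison. Sequences and coding identity came from the RefSeq TAIR10.1 genome and annotation.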

Additional observations from a re-analysis of the deposited data

Results flagged for a closer look

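The results here are those in which an effect differed between genotypes by a test of the difference itself, with edgeR's quasi-likelihood test and adjustment over all genes. For the warming response relative to that of wild type on the log2 scale, these were LOX2 at -0.60 and AOS at -0.57 in ein2, where 2 of 2 libraries at 27 °C lay below both at 21 °C. In ein3 eil1 they were AOS at -0.61, VSP2 at -0.67, LOX2 at -0.30 and JAZ1 at 0.47. In lhp1 they were JAZ1 at 0.42 and LOX2 at -0.27. In ein2 lhp1 they were VSP1 at 0.96, JAZ1 at 0.69, AOC2 at 0.66 and VSP2 at 0.31. Each was refitted 27 times, with another setting or with 1 library left out. The call of VSP2 in ein2 lhp1 was lost in 6 of these fits and that of LOX2 in lhp1 in 5. JAZ1 in ein3 eil1, JAZ1 in lhp1 and LOX2 in ein3 eil1 lost theirs in 2 each.

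For the effect of lhp1 in ein2 relative to that in wild type at 21 °C, these were JAZ5 at -2.34, VSP1 at -1.90, LOX2 at -1.14, VSP2 at -0.70, OPR3 at -0.53, JAZ1 at -0.39, AOS at -0.21 and AOC2 at 0.40. At 27 °C they were JAZ5 at -3.08, VSP1 at -1.25, JAZ10 at -0.80, OPR3 at -0.58, AOS at 0.62 and AOC2 at 0.89. AOS changed sign between the temperatures, and that change itself was not tested. Of the 27 further fits, the call of JAZ10 at 27 °C was lost in 13 and that of AOS at 21 °C in 7. JAZ1 at 21 °C lost its call in 3, and JAZ5 in 2 at 21 °C and in 1 at 27 °C.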

How the results depend on the processing

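With size factors of another method and with the replicate number as a block, all 230 member values were the same. The same means the same call here, with direction compared only where at least 1 of the fits made a call. Uncalled values could change sign, as for JAZ5 with warming in wild type, from -1.225 to 0.023 over the settings. The numbers do not pair the libraries, since none of the 45 correlations between groups was over 0.1 (-0.054 to 0.025). Without the count filter 227 were the same, with DESeq2 222, with the ribosomal RNA region genes left out 229, and with the trend with gene length removed 220. DESeq2 did not call OPR3 with warming in lhp1 or ein2 lhp1, nor, against wild type at 27 °C, VSP2 in ein3 eil1 or AOC2 in ein2 lhp1. It also did not call the VSP2 response in ein2 lhp1, or LHP1 loss between backgrounds for AOS at 21 °C and JAZ10 at 27 °C. JAZ5 was newly called by it in ein2 lhp1 against lhp1 at 27 °C. That AOS call was lost too without the ribosomal RNA region genes and with the length trend removed. With that trend removed, 3494 genes were called for the ein2 response (5309 with it) and 2172 for the ein2 lhp1 response (3709). For the lhp1 response 1 member was called, where 2 were called with the trend kept, beside 20.6% of genes, so neither count stands apart from that share. The cause was not tested. With near-identical copies summed, 207 were the same and 9 reversed, as the copies then share 1 value. For AOC1 the sum was 0.23 and 0.31 in ein3 eil1 against wild type at 21 and 27 °C, 0.38 for ein2 lhp1 against lhp1 at 21 °C and 0.32 for LHP1 loss between backgrounds at 21 °C. For VSP1 it was 0.23 for warming in wild type, 0.17 in ein2, -0.28 for the ein3 eil1 response and 0.38 for ein2 lhp1 against ein2 at 27 °C, and for VSP2 -0.18 against ein2 at 21 °C. No count of members called was made there. Of 4600 values with 1 library left out, 4494 were the same, the lone library being assumed to vary like the other groups. The members called then ranged from 4 to 7 for warming in wild type, 1 to 3 for the lhp1 response, 4 to 8 for ein2 lhp1 against wild type and 5 to 8 against ein2 at 27 °C, and 5 to 8 for LHP1 loss between backgrounds at 21 °C. Depth limits JAZ5.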
